A study of Homo sapiens with 45 samples.

Results

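The genes described here are 5 of the 23045 rows measured: TFRC, the transferrin receptor, FTH1 and FTL, the heavy and light chains of ferritin, and IREB2 and ACO1, the iron regulatory proteins that act on those mRNAs. They were taken by symbol from the deposited tables of estimated counts and of TPM (a level scaled by transcript length to a fixed total per cell) in each of 45 single cells. The genes were chosen by measured values of these same cells, since earlier results were known, among them that TFRC had no count in the fixed Triton cells. Their levels and ratios are therefore descriptions and carry no test. All cells came from passage 40 of H1, a long-established line of human embryonic stem cells, grown on Matrigel in mTeSR1 medium and dissociated with Accutase. The 12 fixed FRISCR and 15 live FRISCR cells went through FRISCR, which is a way to get RNA back from single cells after fixation. The 7 fixed Triton and 11 live Triton cells belong by the labels' sample group to lysis in the detergent Triton X-100, and fixed cells were DAPI+ and live cells DAPI- throughout. In the titles the FRISCR cells are called PLRC and the Triton cells RLT, which the labels do not explain, so the name Triton rests on the sample group alone. The series was set up to test the principle of FRISCR on cells of a line. No genotype, drug or time point separates the groups, and the fixation of the H1 cells is not given in the sources used here, because the extraction protocol in the labels speaks of cortical tissue.

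Cells take up iron by binding transferrin at the transferrin receptor and store it inside ferritin, a shell of heavy chains, which oxidise iron, and light chains, which help form the mineral core. Iron-poor cells carry active iron regulatory proteins, which bind a stem-loop called the iron-responsive element. Binding in the 5′ untranslated region of the ferritin mRNAs blocks their translation, and binding in the 3′ untranslated region of the TFRC mRNA protects it from decay. In iron-replete cells ACO1 takes up an iron-sulphur cluster and works as cytosolic aconitase, while the IREB2 protein is degraded through the ubiquitin ligase subunit FBXL5. Much of this control thus acts on protein, which was not measured here. Dividing cells, pluripotent stem cells among them, import iron for haem and iron-sulphur enzymes.

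The elements are shown because they are what sets TFRC apart from the ferritin mRNAs in the control of iron. They were found in the longest protein-coding transcript of each gene in GENCODE 29 by a pattern read on the sense strand: a C, 5 further bases, the 6-base loop CAGTGN in capitals, and 5 bases that pair with those before the loop, G with T allowed. Each line gives 30 bases, 5′ to 3′, as DNA.
FTH1, 5′ untranslated region: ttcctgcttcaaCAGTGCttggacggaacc
FTL, 5′ untranslated region: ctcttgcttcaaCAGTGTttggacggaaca
TFRC, 3′ untranslated region, at base 3388: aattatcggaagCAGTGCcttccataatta
TFRC, 3′ untranslated region, at base 3792: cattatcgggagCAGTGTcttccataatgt
TFRC, 3′ untranslated region, at base 3857: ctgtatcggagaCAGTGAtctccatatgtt
TFRC, 3′ untranslated region, at base 3904: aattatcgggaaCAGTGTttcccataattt

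The FTH1 match lay at bases 59 to 88 of a transcript of 1229 bases and the FTL match at bases 35 to 64 of 878 bases. The TFRC matches lay at bases 3388 to 3417, 3792 to 3821, 3857 to 3886 and 3904 to 3933 of 5111 bases. No stretch of the IREB2 transcript (6354 bases) or the ACO1 transcript (7466 bases) matched, which says only that these letters are not there. Of 19639 protein-coding genes, 20 (0.102%) had a match in the 5′ untranslated region and 120 (0.611%) in the 3′ untranslated region, and TFRC was the 1 gene with 4 or more matches there. On GRCh38, the build of GENCODE 29, the genes lie at chr3:196027183-196082189 (TFRC, minus strand), chr11:61959718-61967660 (FTH1, minus strand), chr19:48965301-48966878 (FTL, plus strand), chr15:78437431-78501456 (IREB2, plus strand) and chr9:32384603-32454769 (ACO1, plus strand). The deposited tables were made on GRCh37 and hold no coordinates.

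**Figure D1:**
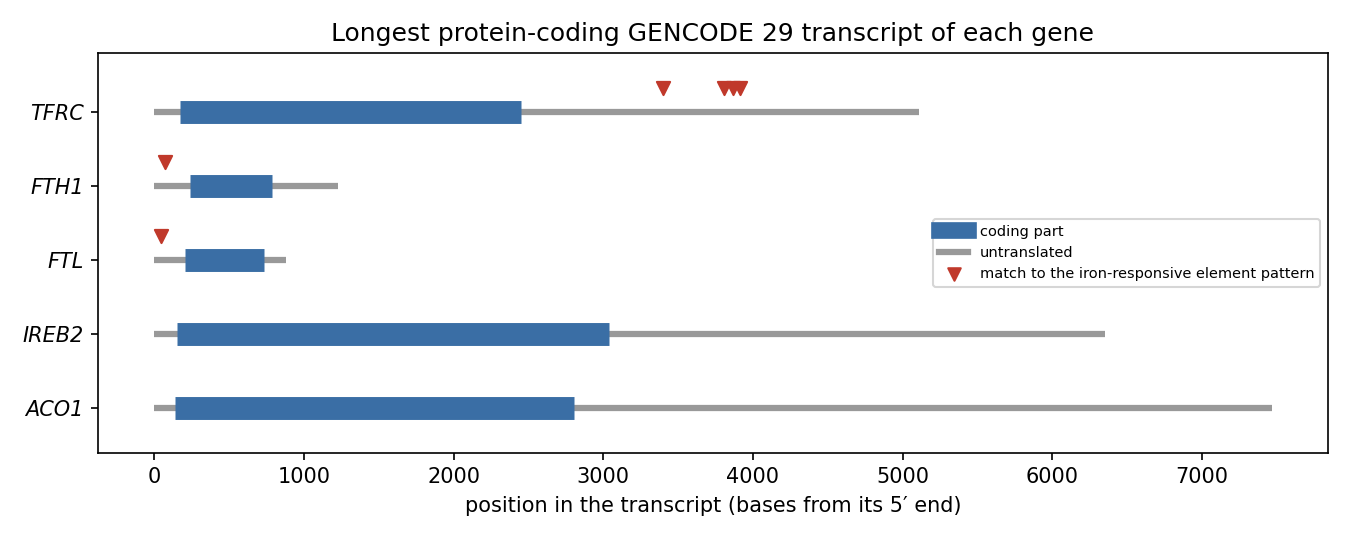
Transcripts of the 5 genes drawn to scale from their 5′ end, with the position in bases along the horizontal axis. The thick bar is the coding part, the thin line the untranslated parts, and a triangle marks a match to the iron-responsive element pattern: 1 in FTH1, 1 in FTL, 4 in TFRC and 0 in IREB2 and ACO1.

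Totals ran from 3388417 to 6594043 counts per cell. The titles carry 2 library set codes, and each group has cells of both sets. At full depth, without thinning, the median number of genes detected was 9943.5 in fixed FRISCR, 10169 in live FRISCR, 6130 in fixed Triton and 10790 in live Triton cells. Ribosomal RNA rows and 5 other very abundant rows took a median of 5.54%, 5.20%, 42.5% and 11.5% of counts in the same order of groups. All 8 pluripotency markers had counts in every group, POU5F1, NANOG and SOX2 among them, and their summed level had a median of 4971.4 CPM (counts scaled to a fixed total per cell, with no correction for length) in fixed FRISCR and 5041.6 CPM in live FRISCR cells, and of 1526.7 CPM in fixed Triton and 4215.7 CPM in live Triton cells. The fixed Triton libraries thus stand apart in genes detected, in abundant rows and in the markers of the line. Of 6 fibroblast markers DCN, LUM and COL3A1 were at 0 in every group, and the list summed to a median of 27.3 CPM (0 to 401.4) in fixed FRISCR and 170.8 CPM (58.1 to 528.0) in live FRISCR cells, and of 43.1 CPM (0 to 102.1) in fixed Triton and 64.6 CPM (31.7 to 259.5) in live Triton cells. Of 6 endoderm markers 1 had counts, up to 124.8 CPM in a fixed Triton cell and at most 32.2 CPM in any cell of the other groups. Neural progenitor, macrophage and erythroid lists summed to at most 17.5, 21.1 and 8.47 CPM in any cell. The part of these markers in the results was not tested. Each group counts as 1 sample, since no separate cultures are named, and no p-value is given; intervals are exact 95% intervals that cover counting error only. Where a group had no count, a bound is given in their place, computed as if its cells together had held 3 counts.

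TFRC, the importer, had a count in 10 of 12 fixed FRISCR, 15 of 15 live FRISCR, 0 of 7 fixed Triton and 11 of 11 live Triton cells. Its lowest, median and highest TPM were 0, 26.6 and 102.2 in fixed FRISCR cells, against 11.7, 49.8 and 268.4 in live FRISCR cells. In Triton lysates all 7 fixed cells were at 0 TPM, against 0.11, 73.3 and 164.7 TPM for the lowest, median and highest live cell. Every fixed Triton cell thus lay below every live Triton cell, whereas in FRISCR 5 of 12 fixed cells lay below the lowest live cell and the rest fell inside the live range. The fixed Triton cells together held 29144186 counts, of which the abundant rows took a median of 42.5% per cell. At the floor of 3 counts over the group, a sum of 0 allows up to 0.103 CPM of TFRC. The part of depth in this 0 was not tested. From low to high the group medians ran fixed Triton, fixed FRISCR, live FRISCR and live Triton, and the last 3 overlapped in range. TFRC also differed by library set, with medians of 74.9 TPM in set 1 and 2.97 TPM in set 2 of fixed FRISCR, 140.5 and 25.3 TPM in live FRISCR, and 101.7 and 69.9 TPM in live Triton cells.

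**Figure D2:**
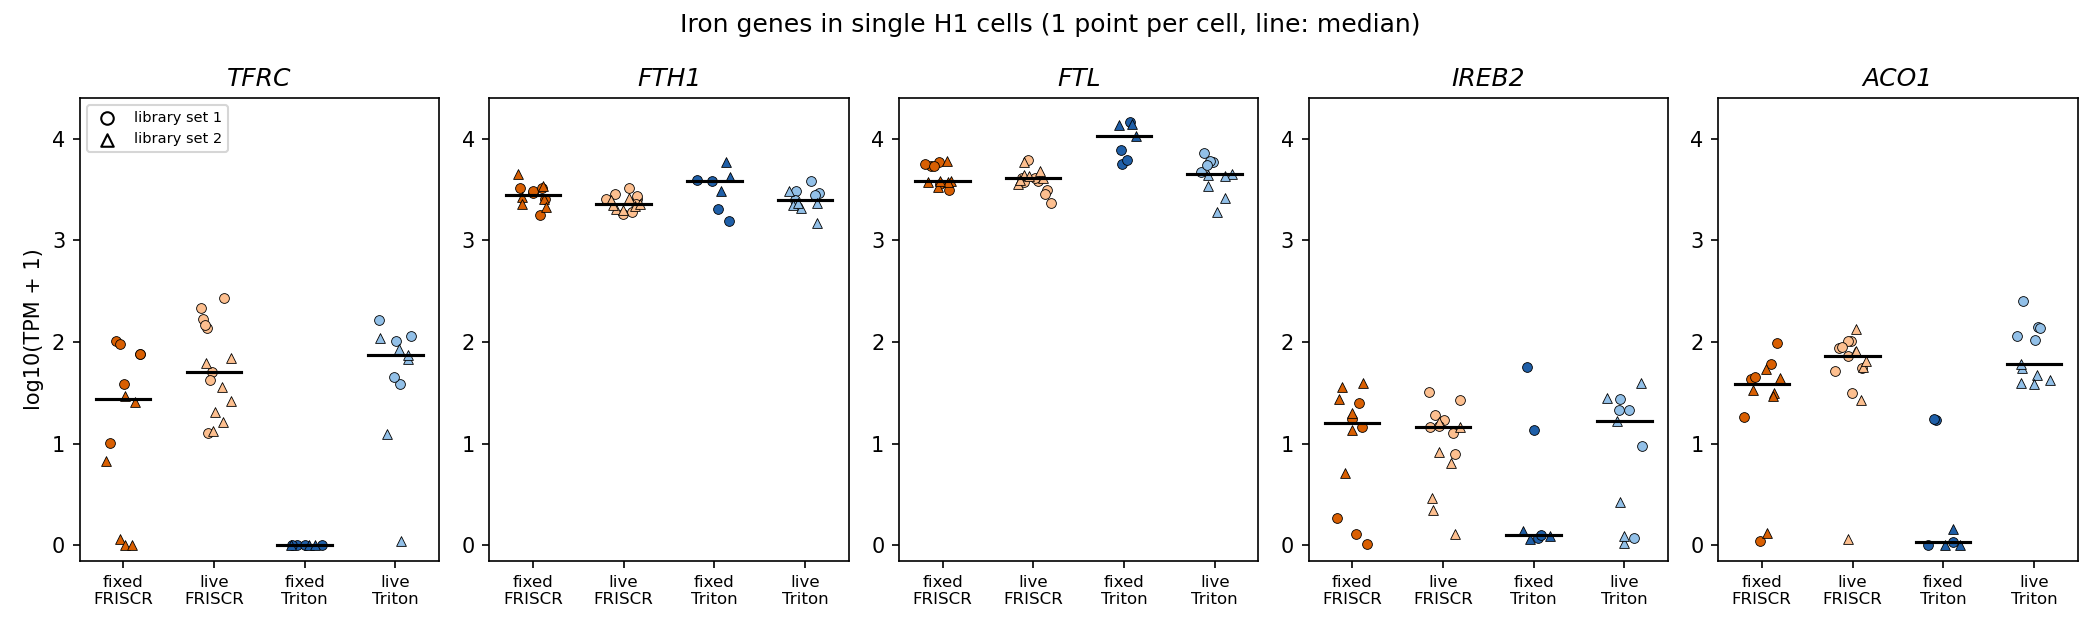
TPM of the 5 genes on a log10(TPM + 1) scale, 1 point per cell, circles for library set 1 and triangles for set 2, with a line at the median of each group. TFRC sits at 0 in all 7 fixed Triton cells, while FTH1 and FTL are at or above 1485.7 TPM in every cell.

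A sum of 0 beside so high a live level was rare among the genes of the fixed Triton cells. Of 932 genes with at least 200 CPM in live Triton cells, TFRC alone had no count in any fixed Triton cell. Since TFRC was chosen with that 0 known, its place among these genes is a description and lends no support. Of 1979 genes with at least 100 CPM there, 4 had none: TFRC, the mitochondrial processing peptidase subunit PMPCA, the ceramide synthase LASS5 and the chromatin factor VPS72, the last 3 named after their values were seen. None of these 1979 genes was at 0 in fixed FRISCR cells.

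The ferritin chains were the most abundant of the 5 mRNAs and had counts in all 45 cells. FTL had 3125.9, 3841.3 and 5990.1 TPM in the lowest, median and highest fixed FRISCR cell, against 2336.4, 4060.2 and 6218.1 TPM in live FRISCR cells. In fixed Triton cells FTL had 5633.0, 10553.9 and 14747.9 TPM, against 1892.8, 4516.1 and 7149.7 TPM in live Triton cells. The FRISCR groups overlapped throughout, and in Triton 5 of 7 fixed cells lay above the highest live cell. By mean TPM, FTL ranked 13 among all rows in fixed FRISCR, 15 in live FRISCR, 9 in fixed Triton and 12 in live Triton cells.

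FTH1 had 1755.5, 2796.6 and 4512.5 TPM in the lowest, median and highest fixed FRISCR cell, against 1797.7, 2285.9 and 3236.8 TPM in live FRISCR cells. It had 1558.9, 3852.0 and 5899.8 TPM in fixed Triton cells, against 1485.7, 2505.0 and 3790.2 TPM in live Triton cells. Again 4 of 7 fixed Triton cells exceeded every live Triton cell, and the FRISCR groups overlapped, with 3 of 12 fixed cells above the live range. From low to high the FTH1 medians ran live FRISCR, live Triton, fixed FRISCR and fixed Triton, and those of FTL ran fixed FRISCR, live FRISCR, live Triton and fixed Triton. Neighbours in either order overlapped in range.

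FTL exceeded FTH1 in TPM in 11 of 12 fixed FRISCR, 15 of 15 live FRISCR, 7 of 7 fixed Triton and 11 of 11 live Triton cells. The median ratio of FTL to FTH1 was 1.73 (range 0.837 to 2.22) in fixed FRISCR cells and 1.61 (1.24 to 2.27) in live FRISCR cells. In Triton it was 3.28 (1.58 to 5.01) in fixed cells and 1.82 (1.12 to 2.54) in live cells, so the ranges overlapped between 1.58 and 2.54. Ferritin mRNA as a whole made up a median of 0.754% of TPM in fixed FRISCR, 0.640% in live FRISCR, 1.36% in fixed Triton and 0.676% in live Triton cells. Within a group the chains went together to different degrees over cells: Pearson's r of log2(TPM + 1) was 0.21 in 12 fixed FRISCR, 0.51 in 15 live FRISCR, 0.63 in 7 fixed Triton and 0.76 in 11 live Triton cells, where cells also share library set and depth.

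**Figure D3:**
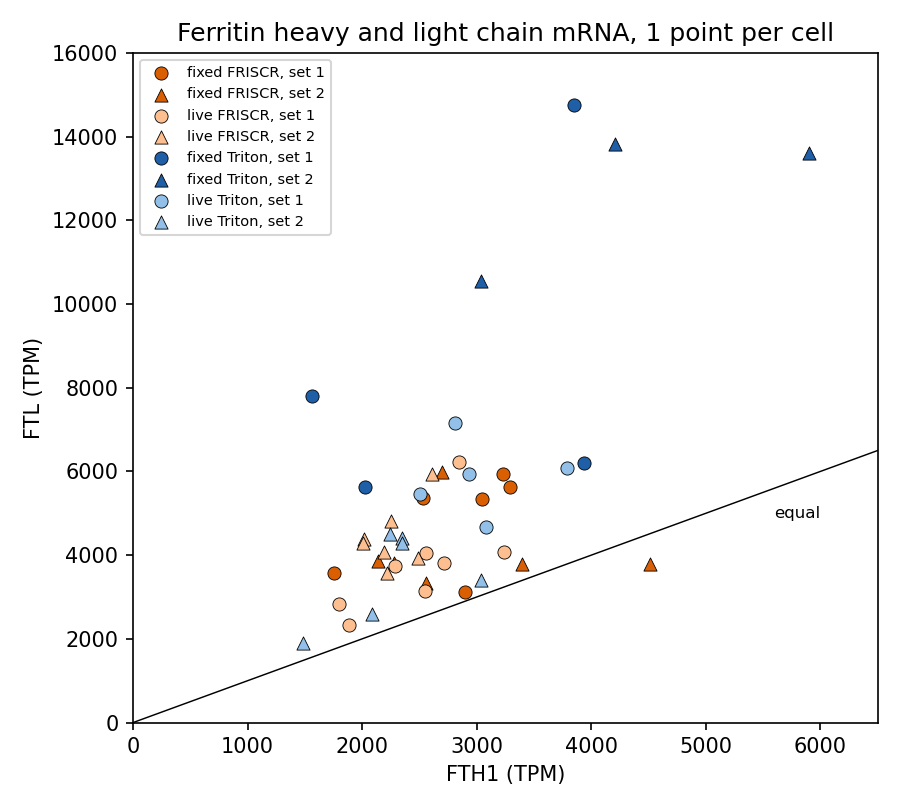
FTL against FTH1, both in TPM, 1 point per cell, coloured by group and shaped by library set, with the line of equal level. Nearly all cells lie above the line, and the 4 highest FTL values, from 10553.9 to 14747.9 TPM, all belong to fixed Triton cells.

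Pseudogenes limit how sharply the ferritin rows can be read. Of the 50-base words of the FTH1 transcript, 40.4% also occur in transcripts of 15 other GENCODE genes, and 18.3% of those of FTL occur in 2, whereas no TFRC word recurs. GENCODE lists 25 FTH1 and 16 FTL pseudogenes, of which the tables carry 1 row each. The FTH1P3 row had 5.00 CPM in fixed FRISCR cells, against 2.77 CPM in live FRISCR cells, and 4.74 CPM in fixed Triton and 1.90 CPM in live Triton cells. How the authors' counting split shared reads is not given in the sources used here, so the ferritin levels may hold some reads of copies. The testis gene FTHL17 and mitochondrial ferritin FTMT were at 0 in every group.

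IREB2, the regulator controlled by degradation, had the lowest median TPM of the 5 in both live groups. It had 0.04, 14.9 and 38.1 TPM in the lowest, median and highest fixed FRISCR cell, against 0.28, 13.4 and 31.4 TPM in live FRISCR cells. It had 0.14, 0.27 and 55.57 TPM in fixed Triton cells, against 0.05, 15.6 and 38.8 TPM in live Triton cells. The groups overlapped, with 2 of 12 fixed FRISCR cells above every live FRISCR cell and 1 of 7 fixed Triton cells above every live Triton cell. The fixed Triton range was set by 2 cells at 12.7 and 55.57 TPM, with the other cells at or below 0.39 TPM. The cell at 55.57 TPM held 80.6% of the group's IREB2 counts.

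ACO1, the regulator that doubles as an aconitase, had 0.09, 37.2 and 97.4 TPM in the lowest, median and highest fixed FRISCR cell, against 0.16, 71.4 and 132.5 TPM in live FRISCR cells. In fixed Triton cells it had 0, 0.07 and 16.6 TPM, against 37.6, 60.4 and 251.2 TPM in live Triton cells. All 7 fixed Triton cells lay below all 11 live Triton cells, and 3 of them had no count. In live Triton cells the library sets did not overlap, with 104.3 to 251.2 TPM in set 1 and 37.6 to 60.4 TPM in set 2. ACO1 exceeded IREB2 in TPM in 8 of 12 fixed FRISCR, 14 of 15 live FRISCR, 3 of 7 fixed Triton and 10 of 11 live Triton cells.

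Taking at least 15 counts as presence, both regulators were seen in 8 of 12 fixed FRISCR and 13 of 15 live FRISCR cells, and in 1 of 7 fixed Triton and 8 of 11 live Triton cells. Neither was seen in 1 fixed FRISCR, 0 live FRISCR, 4 fixed Triton and 0 live Triton cells. TFRC and both regulators were seen together in 5 fixed FRISCR, 13 live FRISCR, 0 fixed Triton and 8 live Triton cells.

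The first comparison asks what fixation did when RNA was recovered by FRISCR. None of the 5 genes was past 2-fold in either direction, beside 11.0% of the 7518 genes that reached 20 CPM in at least 1 of the groups. Of those genes, 7.69% were lower in fixed cells by over 2-fold and 3.34% were higher by as much. TFRC came closest, with 120.2 CPM in fixed cells, against 238.4 CPM in live cells, 1.98-fold lower (95% interval 1.93 to 2.04), just inside the 2-fold limit. It was lower within both sets, by log2 ratios of -0.82 in set 1 and -1.48 in set 2. ACO1 had 82.6 CPM in fixed cells, against 139.4 CPM in live cells, 1.69-fold lower (1.63 to 1.75), and was lower in both sets. FTH1 had 2099.7 CPM in fixed cells, against 1585.1 CPM in live cells, 1.33-fold higher (1.31 to 1.34). FTL had 2223.5 CPM in fixed cells, against 1863.8 CPM in live cells, a log2 ratio of 0.25, made up of 0.51 in set 1 and 0.0042 in set 2. IREB2 had 62.3 CPM in fixed cells, against 44.6 CPM in live cells, and its log2 ratio of 0.48 was -0.85 in set 1 and 1.89 in set 2. The median of the 5 log2 ratios was 0.25, beside -0.02 for all 7518 genes.

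In the same comparison of Triton lysates, 2 of the 5 genes were lower in fixed cells by over 2-fold (TFRC and ACO1), 2 were higher (FTH1 and FTL) and 1 was within 2-fold (IREB2). Of all 7256 genes 70.9% were past 2-fold, 58.5% lower and 12.4% higher, so 4 of 5 is close to the background. TFRC had 0 CPM in fixed cells, against 213.7 CPM in live cells, at least 2076-fold lower at the floor of 3 counts, and by the same floor at least 1435.9-fold lower in set 1 and 735.6-fold lower in set 2. ACO1 had 13.1 CPM in fixed cells, against 187.2 CPM in live cells, 14.3-fold lower (12.9 to 15.9). By set it was 12.9-fold lower in set 1 and 208.5-fold lower (95.7 to 568.6) in set 2, where fixed cells held 6 counts. Its log2 ratio of -3.84 became -4.71 without fixed Triton replicate 1 and -4.51 without fixed Triton replicate 3, the cells that hold most of its counts. FTL had 7448.5 CPM in fixed cells, against 2109.9 CPM in live cells, 3.53-fold higher (3.51 to 3.56). FTH1 had 3591.9 CPM in fixed cells, against 1776.4 CPM in live cells, 2.02-fold higher (2.01 to 2.04). Both chains were higher in both sets, FTL by log2 ratios of 1.20 and 2.48 and FTH1 by 0.47 and 1.56. FTH1 was thus inside 2-fold in set 1, and also by mean TPM in place of summed counts, with a log2 ratio of 0.43. IREB2 had 47.1 CPM in fixed cells, against 51.6 CPM in live cells, a log2 ratio of -0.13, which changed to 0.63 within set 1, -5.15 within set 2 and -2.29 without fixed Triton replicate 4.

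These ratios stand against a shifted background, since the median log2 ratio of all 7256 genes was -1.50 by total counts, -0.48 with TMM factors, -0.30 with median-of-ratios factors and -0.89 with totals without the abundant rows. TFRC, ACO1, FTL and FTH1 kept their direction under each of these, but their sizes moved. With TMM, median-of-ratios and abundant-row scaling, FTL had log2 ratios of 2.84, 3.02 and 2.44 in place of 1.82. FTH1 had 2.03, 2.21 and 1.63 in place of 1.02. ACO1 had -2.82, -2.64 and -3.22 in place of -3.84, and the bound for TFRC was -10.00, -9.82 and -10.40 in place of -11.02. Summed IREB2 counts turned to higher in fixed cells under the same 3 scalings, with log2 ratios of 0.88, 1.06 and 0.48. Fixed Triton replicate 4 held 80.6% of the IREB2 counts of its group, and by total counts the ratio was -2.29 without it. The median IREB2 level was 0.27 TPM in fixed Triton cells, against 15.6 TPM in live Triton cells. Ratios also differed by transcript length, though not steadily: genes were put in 5 equal classes by the length that the deposited counts and TPM imply. In the shortest class, which held FTH1 and FTL, the median log2 ratio of 1452 genes was 0.02, with 25.7% higher and 29.8% lower by over 2-fold. Of those genes, 9.09% lay above FTL and 25.3% above FTH1. In the longest class, which held TFRC and IREB2, the median was -1.49 over 1451 genes, of which 99.8% lay above TFRC at its bound. Since TFRC was chosen with its 0 known, its place in the class is a description and lends no support. ACO1 was in the class next to the longest, in which the median was -2.0, lower than in the longest class. There 72.9% of 1451 genes lay above ACO1. The part of length and of the abundant rows in these ratios was not tested.

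**Figure D4:**
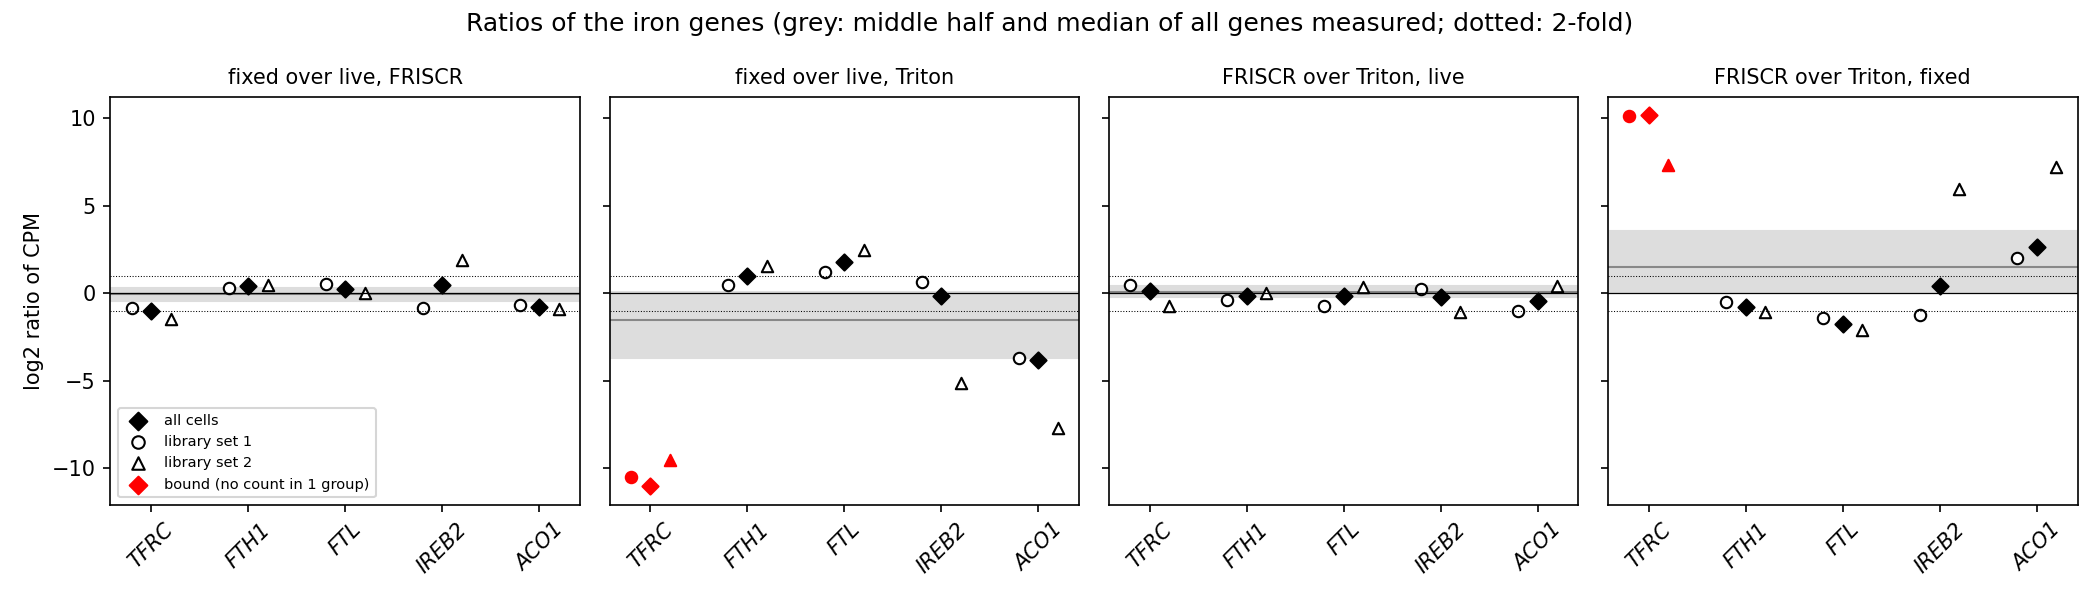
Log2 ratios of CPM for the 5 genes in the 4 comparisons, with diamonds for all cells, circles for library set 1 and triangles for set 2; red marks a bound where a group had no count, the grey band holds the middle quartiles of all genes and dotted lines mark 2-fold. In fixed over live Triton cells FTL (1.82) and FTH1 (1.02) lie above the band, which spans -3.68 to 0.07, and ACO1 (-3.84) and TFRC, at its bound, lie below it.

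Set side by side, the log2 ratio of fixed to live cells in Triton minus that in FRISCR was 1.57 for FTL and 0.61 for FTH1. It was -0.62 for IREB2 and -3.08 for ACO1, and the medians over all genes differed by -1.48. For IREB2 the difference was 1.48 within set 1 and -7.04 within set 2. These differences rest on 4 groups of 1 sample each and were not tested.

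The comparison of FRISCR with Triton in live cells shows the genes where no fixation was involved. None of the 5 was past 2-fold, beside 9.71% of 7447 genes, with 3.14% lower and 6.57% higher in FRISCR cells. TFRC had 238.4 CPM in FRISCR and 213.7 CPM in Triton cells, a log2 ratio of 0.16. The ratios were -0.16 for FTH1, -0.18 for FTL, -0.21 for IREB2 and -0.43 for ACO1. Each of the 5 had opposite signs in the 2 sets, as in TFRC with 0.46 in set 1 and -0.70 in set 2, and ACO1 with -0.99 and 0.40. No direction for any of them therefore held across sets in live cells.

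In fixed cells the 2 preparations differed much more. FTL was lower in FRISCR, TFRC and ACO1 were higher, and FTH1 and IREB2 were within 2-fold. Of all 7272 genes 70.5% were past 2-fold, 10.6% lower and 59.8% higher, so the count of 3 in 5 stands near the background. TFRC had 120.2 CPM in FRISCR and 0 CPM in Triton cells, at least 1167.7-fold higher at the floor of 3 counts. ACO1 had 82.6 CPM in FRISCR and 13.1 CPM in Triton cells, 6.30-fold higher (5.68 to 7.01), with a log2 ratio of 2.66 that was 3.53 without fixed Triton replicate 1 and 3.33 without replicate 3. By set ACO1 was 4.13-fold higher in set 1 and 150.2-fold higher (68.9 to 409.9) in set 2. FTL had 2223.5 CPM in FRISCR and 7448.5 CPM in Triton cells, 3.35-fold lower (3.33 to 3.37), and all 12 FRISCR cells lay below every Triton cell in CPM and 10 of 12 in TPM. FTH1 had 2099.7 CPM in FRISCR and 3591.9 CPM in Triton cells, 1.71-fold lower (1.70 to 1.73). IREB2 had 62.3 CPM in FRISCR and 47.1 CPM in Triton cells, a log2 ratio of 0.40 that was 2.56 without fixed Triton replicate 4, -1.22 in set 1 and 5.96 in set 2. With TMM, median-of-ratios and abundant-row scaling its sign turned, to -0.69, -0.86 and -0.30, and FTH1 passed 2-fold at -1.86, -2.03 and -1.48. In the same order of scalings FTL had -2.83, -3.00 and -2.45 in place of -1.74, ACO1 had 1.57, 1.40 and 1.95 in place of 2.66, and the bound for TFRC was 9.10, 8.93 and 9.48 in place of 10.19.

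Around these genes stand 76 others in 5 lists of iron biology, of which 51 to 54 were measured at 20 CPM or more in a comparison. For fixed over live FRISCR cells 3 of 54 were lower and 2 higher by over 2-fold (median log2 ratio -0.08, against -0.02 for all genes), beside 7.69% and 3.34% of all genes. Within both library sets 1 was lower by as much and 0 higher. For fixed over live Triton cells 28 of 51 were lower and 8 higher, with a median of -1.17 against -1.50 and beside 58.5% lower and 12.4% higher of all genes. Within both sets 21 were lower by over 2-fold and 2 higher. FRISCR over Triton gave 0 lower and 5 higher of 53 in live cells and 9 lower and 30 higher of 53 in fixed cells, beside 3.14% and 6.57% of all genes in live cells and 10.6% and 59.8% in fixed cells. Within both sets these became 0 lower and 0 higher in live cells, and 1 lower and 22 higher in fixed cells. The medians were 0.12 and 1.39, against 0.10 and 1.53 for all genes. List members without a count in fixed Triton cells entered these medians at their bound.

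Among 21 genes of iron uptake and transport, 9 were measured in fixed over live Triton cells, with 5 lower and 2 higher, beside 58.5% and 12.4% of all genes, and with 4 lower and 0 higher within both sets. SLC39A14, a metal importer, had 178.1 CPM in fixed FRISCR cells, against 350.0 CPM in live FRISCR cells, 1.97-fold lower. In Triton it had 75.97 CPM in fixed cells, against 323.0 CPM in live cells, 4.25-fold lower (4.07 to 4.45). SLC11A2, which moves iron out of endosomes, had 51.6 CPM in fixed Triton cells, against 107.2 CPM in live Triton cells, 2.08-fold lower. The endosomal ferrireductase STEAP3 had 1 count in fixed Triton and 1506 counts in live Triton cells, 759.1-fold lower (136.0 to 30004). Its relative STEAP2 went the other way there by summed counts, with 68.6 CPM in fixed cells, against 32.3 CPM in live cells, 2.12-fold higher, while it was 1.97-fold lower in fixed over live FRISCR cells. In Triton the STEAP2 log2 ratios were 1.32 in set 1 and 0.09 in set 2. Its median TPM was lower in fixed Triton cells, at 1.85 against 13.3 in live Triton cells. SLC39A8, another importer, had no count in fixed Triton and 20.8 CPM in live Triton cells, at least 201.6-fold lower at the floor of 3 counts; it was named for its 0. The ferroxidase HEPH had 5.21 CPM in fixed Triton cells, against 25.5 CPM in live Triton cells, and among live cells was 2.36-fold higher in FRISCR than in Triton, by log2 ratios of 2.40 in set 1 and -0.18 in set 2, so that the direction turned. SNX3, a sorting protein that recycles the receptor, had 84.3 CPM in fixed FRISCR cells, against 51.0 CPM in live FRISCR cells, 1.65-fold higher. TMPRSS6, a protease of hepcidin control, had 23.3 CPM in fixed Triton cells, against 0.0173 CPM in live Triton cells, all from 1 fixed cell and 1 live cell. Transferrin itself (TF), the exporter SLC40A1 and hepcidin (HAMP) had no count in any group, and were named for that.

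Of 8 genes of storage and regulation, 6 were measured, and 3 were lower and 0 higher in fixed over live Triton cells, beside 58.5% and 12.4% of all genes, and 2 were lower within both sets. The iron chaperones PCBP1 and PCBP2 were the most abundant. PCBP1 had 135.9 CPM in fixed Triton cells, against 254.0 CPM in live Triton cells, 1.87-fold lower, by log2 ratios of 0.50 in set 1 and -3.37 in set 2, so that it was higher in set 1. PCBP2 had 145.4 CPM in fixed cells, against 75.6 CPM in live cells, 1.92-fold higher. FBXL5, which targets the IREB2 protein, had 105.8 CPM in fixed FRISCR cells, against 67.7 CPM in live FRISCR cells, 1.56-fold higher. In Triton FBXL5 had 17.7 CPM in fixed cells, against 86.1 CPM in live cells, 4.87-fold lower, with all fixed counts in 1 of 7 cells. RC3H1, an RNA-binding protein that promotes decay of TFRC mRNA, had 54.7 CPM in fixed Triton cells, against 58.5 CPM in live Triton cells, and 22.5 CPM in fixed FRISCR and 34.6 CPM in live FRISCR cells. Its log2 ratios had opposite signs in the sets in both comparisons, -3.09 and 1.22 in Triton and -3.10 and 0.25 in FRISCR.

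Iron-sulphur cluster assembly had 26 genes, of which 10 of 21 measured were lower and 4 higher in fixed over live Triton cells, beside 58.5% and 12.4% of all genes, and 3 of 24 lower and 1 higher in fixed over live FRISCR cells, beside 7.69% and 3.34%. Within both sets 7 were lower and 2 higher in Triton, and 1 lower and 0 higher in FRISCR. The mitochondrial chaperone HSPA9 was the most abundant by CPM: it had 73.8 CPM in fixed Triton cells, against 599.6 CPM in live Triton cells, 8.12-fold lower. In FRISCR it had 570.0 CPM in fixed cells, against 696.2 CPM in live cells, 1.22-fold lower. CIAPIN1, of the cytosolic assembly machinery, had 35.4 CPM in fixed Triton cells, against 172.5 CPM in live Triton cells, 4.88-fold lower. MMS19, also cytosolic, had 1 count in fixed Triton and 3711 counts in live Triton cells (335.5 to 73906-fold lower by the interval). The co-chaperone HSCB had 53.1 CPM in fixed Triton cells, against 11.9 CPM in live Triton cells, 4.46-fold higher, and was higher in both sets by summed counts. By median TPM it was lower, with 2.31 in fixed Triton cells (0 to 148.9) against 17.5 in live Triton cells. In FRISCR, NUBPL, an assembly factor of complex I, had 6.88 CPM in fixed cells, against 30.0 CPM in live cells, 4.36-fold lower and lower in both sets. The median NUBPL level was low in both groups, at 0.93 TPM in fixed (0.18 to 34.1) and 1.72 TPM in live FRISCR cells (0.5 to 50.9). GLRX5 was at the other end in FRISCR with 37.3 CPM in fixed cells, against 18.6 CPM in live cells, 2.00-fold higher. Its log2 ratios were 2.19 in set 1 and 0.12 in set 2. Between live cells, NARFL was at the high end with 24.5 CPM in FRISCR and 10.4 CPM in Triton cells, and ISCA2 at the low end with 61.3 CPM in FRISCR and 99.8 CPM in Triton cells.

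Haem synthesis, breakdown and export had 16 genes, of which 8 of 13 measured were lower and 2 higher in fixed over live Triton cells, beside 58.5% and 12.4% of all genes, and 6 were lower and 0 higher within both sets. UROD had 64.4 CPM in fixed Triton cells, against 145.6 CPM in live Triton cells. ALAS1, the first enzyme of the pathway, had 4 counts in fixed Triton and 3588 counts in live Triton cells, 452.2-fold lower (176.4 to 1660). It had 104.0 CPM in fixed FRISCR cells, against 70.1 CPM in live FRISCR cells. The haem oxygenase HMOX1 and the biliverdin reductase BLVRA were named for having no count in fixed Triton cells, against 24.8 CPM (HMOX1) and 29.7 CPM (BLVRA) in live Triton cells. CPOX and PPOX were the 2 that were higher, CPOX with 36.2 CPM in 2 of 7 fixed Triton cells against 3.70 CPM in live Triton cells. PPOX had 84.7 CPM in fixed Triton cells, from 3 of 7 cells, against 42.2 CPM in live Triton cells. Its log2 ratios were 1.19 in set 1 and -6.58 in set 2. By median TPM it was lower, with 0 in fixed Triton cells against 33.1 in live Triton cells. In fixed over live FRISCR cells 1 of 14 measured was higher and 0 lower by over 2-fold, beside 3.34% and 7.69% of all genes. This was ALAD, with 23.6 CPM in fixed cells, against 10.2 CPM in live cells, 2.31-fold higher. Its log2 ratios were 1.45 in set 1 and 0.87 in set 2. Between live cells, FECH, which inserts the iron into haem, had 29.1 CPM in FRISCR and 8.18 CPM in Triton cells, and the biliverdin reductase BLVRB had 19.3 CPM in FRISCR and 26.6 CPM in Triton cells, lower in set 1 alone (-0.95, against 0.32 in set 2). Among other mRNAs known for an iron-responsive element, 3 of 7 were measured and all 3 were lower in fixed over live Triton cells, beside 58.5% of all genes, and 2 within both sets, with CDC42BPA, a kinase, 7.98-fold lower. None of the 3 was past 2-fold in fixed over live FRISCR cells, beside 11.0% of all genes.

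**Figure D5:**
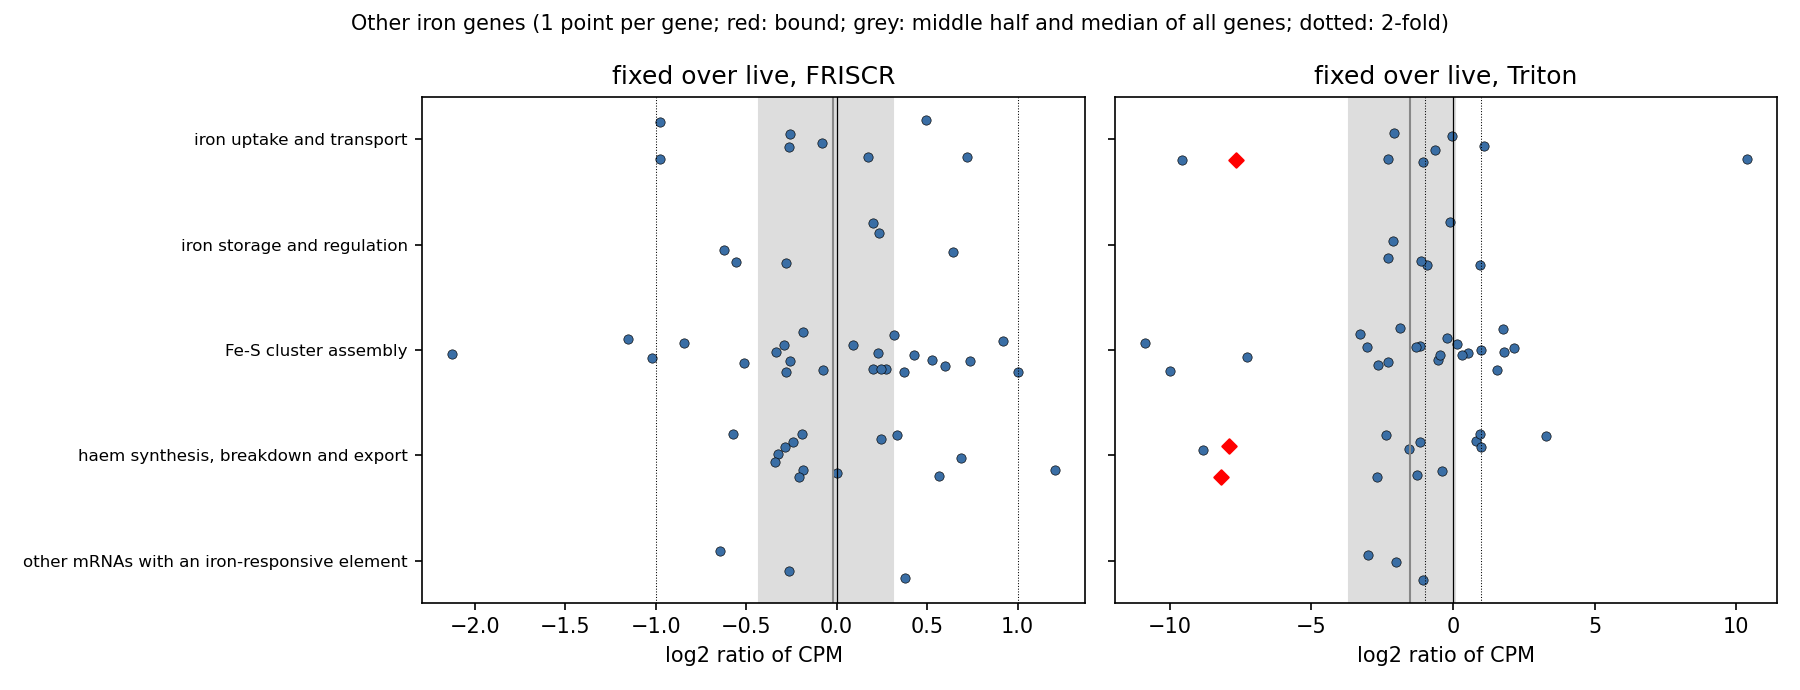
Log2 ratios of CPM of the other iron genes in fixed over live FRISCR cells (left) and fixed over live Triton cells (right), 1 point per gene and 1 row per list; red marks a bound, the grey band the middle quartiles and median of all genes and the dotted lines 2-fold. The horizontal axes differ: most points lie within 2-fold in FRISCR, while 28 of 51 are lower by over 2-fold in Triton.

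Genes whose level followed each of the 5 over cells were sought among 8811 genes in the 15 live FRISCR and 11 live Triton cells apart, as Pearson's r of log2(CPM + 1). ETAA1, GAR1 and SCML2 were most like TFRC, with r of 0.65 and 0.83 for ETAA1 in FRISCR and Triton. C18orf10, TRAPPC6A and COPS6 were most like FTH1, and RNF34, ZNF880 and GSTP1 most like FTL. DENND4C, with r of 0.82 and 0.73, led for IREB2 before PCCB and MICAL1, and CUEDC2, with 0.86 and 0.77, led for ACO1 before PDHB and TM9SF1. None of the 5 iron genes appeared in the list of another. Only 2 of these 15 genes were also named with Spearman's rho, so the choice depends on the measure, and cells share library set and depth. TFRC itself had an r of -0.40 with FTL in live FRISCR and 0.36 in live Triton cells on log2(TPM + 1), and so no common sign.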

How the data were processed

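Libraries of single H1 cells were made by Smart-seq2 and Nextera XT, as the labels' protocols state. The authors deposited estimated counts per gene (40.3% of the values above 0 have decimals) and, in another table, TPM scaled by transcript length. The submitters' processing notes name GRCh37 (hg19). Which aligner, quantifier and annotation were used is not given in the sources used here. Columns were matched to the 45 cells by title, and the 4 groups follow the labels' sample group.

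Counts were rounded to whole numbers and added up within each group, and CPM came from the added totals. Ratios carry exact 95% intervals from the binomial split of both counts. A group with 0 counts was given a floor of 3. Genes with at least 20 CPM in 1 of the groups gave the background. TPM alone served to compare levels between genes, and its range over cells shows the spread. Columns were checked for identical values, with none found. The calculation of ratios was checked on simulated counts with known folds. The members and gene lists were chosen with earlier results of these data known. Named from each list were the 2 most abundant genes and the most extreme each way in each comparison, and other genes are said where they were named for a 0. Some genes that this rule takes are not reported here. The 3 most alike genes were named for each member, among genes averaging 10 CPM or more over live cells. Alternatives used TMM factors (edgeR 4.0.16), median-of-ratios factors (DESeq2 1.42.0, R 4.3.3), mean CPM, mean TPM, other totals, thresholds, floors and filters, each library set, and leaving out each cell. The iron-responsive elements came from GENCODE 29 transcripts (GRCh38), since no annotation of the files' build was used.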

Additional observations from a re-analysis of the deposited data

Results flagged for a closer look

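IREB2 in the fixed Triton group had 1 cell far from the others, at 55.57 TPM, with the next cell at 12.7 TPM and the other 5 between 0.14 and 0.39 TPM. The gap to the next cell was 0.774 of the range over the 7 cells, above the critical value of 0.568. The limit is set so that 1 group in 20 of normally distributed values passes it. TPM of single cells are skewed and cells are not replicates, so that rate does not hold here. In all, 8 ends of such groups were examined, and the limit only marks the cell for a look. The cell, replicate 4 of library set 1, had 1106 IREB2 counts of 3996243 in all, 0 counts of TFRC and of ACO1, and its IREB2 level exceeded that of each of the 11 live Triton cells.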

How the results depend on the processing

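No paired analysis was possible because the results come from no test and replicate numbers only name cells. The count of the 5 genes past 2-fold in fixed over live FRISCR cells, 0 in all cells, was 1 with mean CPM and 1 with mean TPM, 2 in library set 2 and 2 at a 1.5-fold threshold, and 0 to 1 when single cells were left out; TFRC, at 1.98-fold lower, made most of these. In FRISCR over Triton the count was 1 in place of 0 in set 2 of live cells and 5 in place of 3 in set 2 of fixed cells. Leaving out single cells gave 3 to 5 in fixed over live Triton cells (4 in all), 0 in FRISCR over Triton live cells and 3 to 4 in fixed cells. The share of all genes past 2-fold in fixed over live FRISCR cells was 32.2% with no filter, 5.22% at 50 CPM or more, 22.5% in set 1 and 21.6% in set 2, against 11.0%. In FRISCR over Triton live cells it was 31.8%, 3.89%, 22.9% and 18.3% for the same settings, against 9.71%. For these shares and counts the cause was not tested. Of the 15 genes most like a member, 2 were shared with Spearman's rho, 8 with a minimum of 50 CPM and 12 with log2(TPM + 1). Cells with a count of IREB2 numbered 45 as deposited, 42 after thinning to 1000000 counts and 38 after thinning to 500000, and those of TFRC 36, 36 and 35; the unthinned counts were added after the data were seen. With 1 sample per group, no ratio has a replicate check. Few cells in fixed Triton, where 1 or 2 held most counts of IREB2 and ACO1, limit those ratios.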
